A study of Oryza sativa with 28 samples.

Results

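The step from meiosis to the uninucleate microspore stage was followed in sterile panicles of rice. The material was Wuxiang S (WXS), a photoperiod and thermosensitive genic male sterile line of O. sativa ssp. indica that carries a mutant allele of tms5. Plants that stayed in the summer paddy field were male sterile and are called WXS(S). The field had a mean temperature above 22 °C, with 14 h of light and 10 h of darkness. Plants of the same line that were moved to chambers with a mean of 22 °C and the same light cycle became fertile and are called WXS(F). Whole young panicles were collected at the meiosis period (P3) and at the uninucleate period (P4), which gave the groups SP3 and SP4 for WXS(S) and FP3 and FP4 for WXS(F). All 4 groups carry the tms5 mutant allele, and no library came from a line with a working copy. The libraries described here are the 3 of SP3 and the 3 of SP4, which are 6 of the 12 RNA-seq libraries and of the 28 samples of the series. FP3 and FP4, with 3 libraries each, were used only to show where the sterile step differed from the fertile one, and that contrast carries the growing conditions along with fertility.

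In an anther, meiocytes divide into microspores while the tapetum, the cell layer around them, makes and exports the lipids and phenolics of the pollen wall and then degenerates. The TMS5 protein is an RNase Z that processes messenger RNAs of the Ub_L40 family, which encode ubiquitin fused to the ribosomal protein L40. In tms5 mutants these messenger RNAs accumulate at high temperature and pollen fails. A panicle also holds glumes, lodicules, pistils and stem tissue, so a lower value can mean fewer cells of a type or less RNA per cell, and whole-panicle RNA cannot tell these apart.

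Total estimated counts per library ranged from 30577833 (SP3 replicate 3) to 51193158 (SP3 replicate 1), and those of SP4 from 32771696 to 40415830. SP3 replicate 3 stood apart from the other libraries of its group. It had the fewest counts of the 6 libraries and yet 34782 loci with a count, against 28044 and 29014 in the other SP3 libraries and 27996 to 29657 in SP4. The first principal component of log2(CPM + 1) held 66.1% of the variance and placed SP3 at -66.0, -65.5 and -45.2 and SP4 at 57.6 to 60.5 (two-sided exact permutation test, p = 0.1, the smallest that 3 against 3 can give). On the second component, with 12.5% of the variance, SP3 replicate 3 scored 53.8 and the other 5 libraries were between -26.7 and -0.06. Pearson's r across genes was 0.968 to 0.979 within SP3, 0.980 to 0.982 within SP4 and 0.920 to 0.936 between the groups. Of 17 floral organ MADS-box loci listed as markers of a flower-bearing organ, the 11 that the study's tables annotate passed the filter on low counts, which their place in those tables made likely. The part of tissue composition and RNA quality in these differences was not tested.

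Of 23601 genes tested, 3022 rose (12.8%) and 1617 fell (6.85%) from SP3 to SP4. A gene was called, and said to rise or fall, when its level changed by more than 2-fold, or 1 on the log2 scale, with an adjusted p under 0.05 in the quasi-likelihood test of edgeR. Log2 fold changes are given with their standard error. Without SP3 replicate 3, 3233 genes rose and 2054 fell, and 4224 of the 4639 calls (91.1%) were shared. The genes that rose took 2.84%, 3.16% and 3.53% of all counts in SP3 and 12.3%, 11.3% and 11.7% in SP4. Those that fell took 7.33%, 6.90% and 4.78% in SP3 and 1.997%, 2.26% and 2.18% in SP4. These shares describe genes chosen by the same libraries and are no separate support. Rises were more frequent than falls at every fold. At least 4-fold changes were counted for 1342 genes that rose and 659 that fell, at least 16-fold changes for 319 and 233, and at least 32-fold changes for 149 and 104. By mean level, 18.5% of the genes under 1 CPM rose and 13.8% fell, whereas 5.96% and 3.50% of those above 100 CPM did. In 3013 of the 3022 rises and 1616 of the 1617 falls, the 3 SP4 libraries did not overlap the 3 SP3 libraries, which was also true of 55.8% of all genes tested.

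Gene models that the authors added to the annotation, which lie outside the loci of the Rice Genome Annotation Project, went mostly one way. Of 1288 tested, 65 rose (5.05%) and 412 fell (32%), while 13.3% of the annotated loci rose and 5.40% fell. The median log2 fold change of the 412 was -3.73, and 48 of them had no count in any SP4 library. They made up 166 of the 233 genes that fell at least 16-fold. Their summed level was 3538, 3239 and 2239 CPM in SP3 and 911, 922 and 886 CPM in SP4, a gap that follows from the choice of models that fell in these libraries. Over all 1288 tested the sums were 21672, 12962 and 14565 CPM in SP3 and 10804, 11919 and 10703 CPM in SP4, with SP3 replicate 1 the highest. In fertile panicles the same models summed to 1187 to 1225 CPM in FP3 and 658 to 879.7 CPM in FP4, and 70 of the 115 that could be tested there fell too. Over all new models in the sterile test, the interaction was called below 0 for 48, of which 38 were among the 412, and called above 0 for 59. The count was 459 without SP3 replicate 3. It was 101 when every library had to hold at least 10 counts, a filter that by its construction drops loci absent from one group. The median SP3 level of the 412 was 1.71 CPM.

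**Figure D1:**
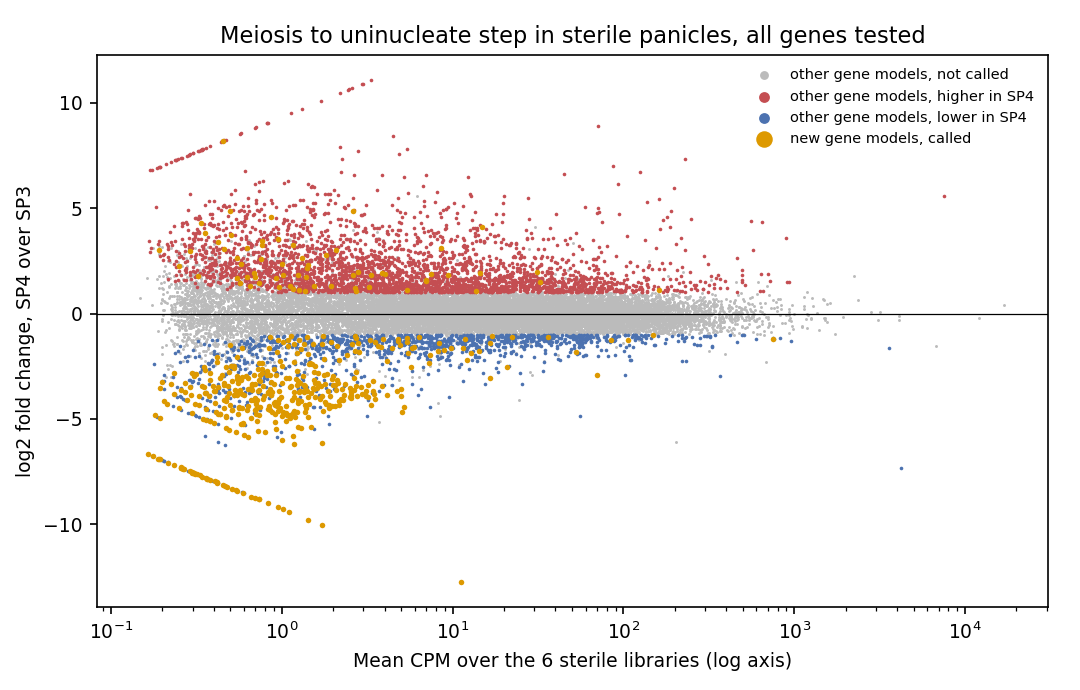
Each point is 1 of the 23601 genes tested, with the mean CPM over the 6 sterile libraries on a log axis and the log2 fold change of SP4 over SP3 on the vertical axis. New gene models that were not called are not drawn. Red and blue points are the genes called higher or lower and orange points are called new gene models, of which 412 lie below 0 and 65 above it. The slanted lines at the edges are genes with no count in 1 of the groups, whose fitted fold changes depend on a prior count.

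The Ub_L40 genes and tms5 did not move alike. The study quantified Ub_L40 1 (LOC_Os09g27930, chromosome 9), Ub_L40 2 (LOC_Os03g15370, chromosome 3) and Ub_L40 4 (LOC_Os09g31031, chromosome 9) with the primers below. Those of Ub_L40 2 and Ub_L40 4 are almost the same. All primers are written 5′ to 3′, and capitals mark the only base that differs between the reverse primers of Ub_L40 2 and Ub_L40 4.
UbL401-F: ctggccgactacaacattca
UbL401-R: agcttgttctcgttgtacttct
UbL402-F: gatccaggacaaggaaggtatc
UbL402-R: Ggactccttctggatgttgtag
UbL404-F: gatccaggacaaggaaggtatc
UbL404-R: Cgactccttctggatgttgtag
The forward primers of Ub_L40 2 and Ub_L40 4 had 0 differences, and the reverse primers had 1, G1C, counted from 1 at the 5′ end with the base of Ub_L40 2 first. Reads from stretches this similar could be assigned to either locus, so the counts of this pair are uncertain. Primers cover short stretches and do not measure how alike the whole genes are. Ub_L40 1 encodes ubiquitin too, so its counts may be uncertain in the same way, which was not tested.

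Ub_L40 1 measured 0.126, 0.370 and 0 CPM in SP3 and 4.47, 6.004 and 4.85 CPM in SP4, so it was close to 0 in SP3, with no count in replicate 3, and all SP4 libraries were above. Its log2 fold change was 4.91 ± 0.81, with an adjusted p of 0.00430 in edgeR, and it was 6.13 without SP3 replicate 2. Ub_L40 2 measured 3.45, 1.76 and 4.68 CPM in SP3 and 13.9, 13.9 and 12.7 CPM in SP4. It rose as well, 4.28-fold (log2 fold change 2.10 ± 0.35, edgeR adjusted p = 0.00430), and its groups did not overlap. Ub_L40 4 had 281, 196 and 231 CPM in SP3 and 269, 257 and 274 CPM in SP4 and was not called (log2 fold change 0.24 ± 0.14, edgeR adjusted p = 0.220). Its SP3 replicate 1 lay above all SP4 libraries, so the groups overlapped. Scaled to gene length, the mean level went from 0.144 to 4.04 FPKM in Ub_L40 1, from 1.93 to 7.91 FPKM in Ub_L40 2 and from 188 to 209.9 FPKM in Ub_L40 4. Ub_L40 4 therefore had the highest level of these genes at both stages. The tms5 gene itself (LOC_Os02g12290, chromosome 2) measured 4.71, 6.07 and 5.43 CPM in SP3 and 3.82, 4.31 and 4.04 CPM in SP4 and was not called (log2 fold change -0.35 ± 0.18, edgeR adjusted p = 0.160), although all 3 SP4 libraries were below SP3.

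In fertile panicles the same step left Ub_L40 1 at 1.96, 2.39 and 1.45 CPM in FP3 and 1.82, 1.88 and 1.90 CPM in FP4, and Ub_L40 4 fell from 41.9, 40.0 and 39.5 CPM to 17.8, 18.8 and 17.1 CPM (log2 fold change -1.13). The difference between the steps was 4.86 for Ub_L40 1, 1.70 for Ub_L40 2 and 1.33 for Ub_L40 4 on the log2 scale (edgeR interaction, adjusted p = 0.00290, 0.0118 and 0.000248), and each was called. In Ub_L40 1 the sterile libraries began below the fertile ones at P3 and ended above them at P4.

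Among the 22 transcription factors (TFs) whose binding motifs the study examined, 6 rose, 2 fell and 14 were not called. Their median log2 fold change was -0.12, against 0.03 over all genes tested. The study chose these factors on the panicles of this series, so the count is a description. OsWR1, an ERF protein known in rice as a regulator of wax synthesis, measured 3.93, 5.003 and 2.63 CPM in SP3 and 14.5, 13.2 and 14.6 CPM in SP4 (log2 fold change 1.93 ± 0.24, edgeR adjusted p = 0.00143). ERF83 followed with 3.34, 2.61 and 3.09 CPM in SP3 and 9.84, 7.82 and 10.97 CPM in SP4 (log2 fold change 1.72 ± 0.20, edgeR adjusted p = 0.00118). In both genes every SP4 library was above every SP3 library. The homeodomain genes HOX6 and HOX16 rose, with log2 fold changes of 1.39 ± 0.17 and 1.21 ± 0.14 and adjusted p of 0.00135 and 0.000990 in edgeR. ROC4, a homeodomain factor of the epidermal class, measured 2.37, 4.002 and 3.45 CPM in SP3 and 7.17, 6.97 and 7.34 CPM in SP4, and its log2 fold change of 1.19 was 0.97 without SP3 replicate 1. The LBD gene was near the lower limit of detection, at 0.462, 0.413 and 0.293 CPM in SP3 and 1.12, 0.821 and 0.860 CPM in SP4. Its log2 fold change of 1.31 (edgeR adjusted p = 0.0245) lost its call without any 1 of the 6 libraries, where it was 1.09 to 1.41. Accordingly 4 factors rose without SP3 replicate 1.

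OsICE1 and ERF141 fell. OsICE1 belongs to a basic helix-loop-helix family known in Arabidopsis for cold responses and stomatal development, and it measured 42.7, 44.2 and 49.4 CPM in SP3 and 18.3, 20.3 and 21.1 CPM in SP4 (log2 fold change -1.13 ± 0.11, edgeR adjusted p = 0.000612). ERF141 measured 4.24, 6.07 and 4.78 CPM in SP3 and 2.25, 1.87 and 2.22 CPM in SP4 (log2 fold change -1.19 ± 0.22, edgeR adjusted p = 0.00622). The groups of both genes were apart. GATA10, a zinc finger factor, measured 7.71, 8.11 and 8.09 CPM in SP3 and 4.64, 4.25 and 4.30 CPM in SP4. All SP4 libraries were below SP3, with a log2 fold change of -0.80 ± 0.14 and an adjusted p of 0.00592 in edgeR, which passed the test but not the fold threshold. MADS7, MADS50 and the MYB gene were not called and had log2 fold changes of -0.19, 0.48 and -0.13. OsbZIP87 measured 78.5, 101 and 137 CPM in SP3 and 178, 182 and 193 CPM in SP4, and its log2 fold change of 0.87 was 1.05 and called without SP3 replicate 3. OsIDD8 was at -0.96 with an adjusted p of 0.0509 in edgeR. ERF134 scattered within both groups, at 1.85, 6.96 and 4.42 CPM in SP3 and 1.88, 0.0283 and 6.05 CPM in SP4. The remaining factors that were not called (ERF65, ERF95, ERF127, ERF130, OsbZIP05, HOX11 and HOX14) had log2 fold changes from -0.71 in HOX11 to 0.55 in ERF65.

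**Figure D2:**
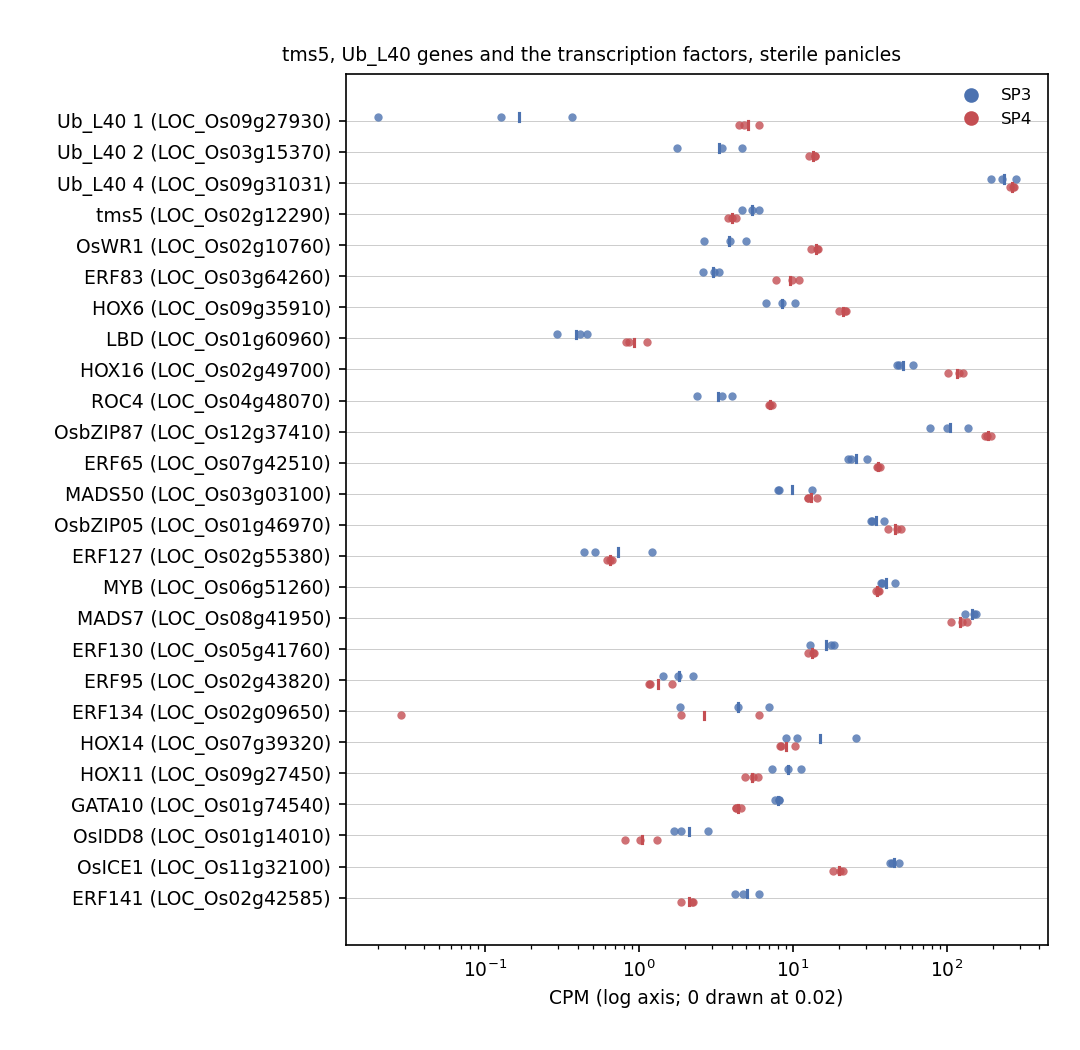
CPM of tms5, the Ub_L40 genes and the 22 TFs in each sterile library on a log axis, with blue points for the 3 SP3 libraries, red points for the 3 SP4 libraries and a short bar for each group mean. A value of 0 is drawn at 0.02. Ub_L40 1 shows the widest gap between the groups, from 0 to 0.370 CPM in SP3 to 4.47 to 6.004 CPM in SP4, and GATA10 shows a small gap in the opposite direction.

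Further gene groups were read from lists of loci with roles in anthers, cell division, organ identity, cell walls, photosynthesis and stress. The lists held 243 loci, and only the 137 memberships (135 distinct loci) that the study's tables annotate were used, of which 3 were not tested. Those tables list genes that differed between the groups of this series, so changes are frequent among annotated loci by construction. Nothing is read from the counts against the background of 12.8% higher and 6.85% lower. The same holds for the fertile step, with a background of 12.9% higher and 6.13% lower. For the interaction the background was 6.62% above 0 and 3.26% below 0. Over all lists 47 memberships rose and 9 fell, and without SP3 replicate 3 these were 46 and 14. An unadjusted p under 0.05 in the sterile step, quoted below for some lists, was reached by 11607 of the 23601 genes tested in edgeR. Gene names are given where the study pairs them with a locus, and other loci are given by their ID with the gene ontology (GO) term of the study.

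**Figure D3:**
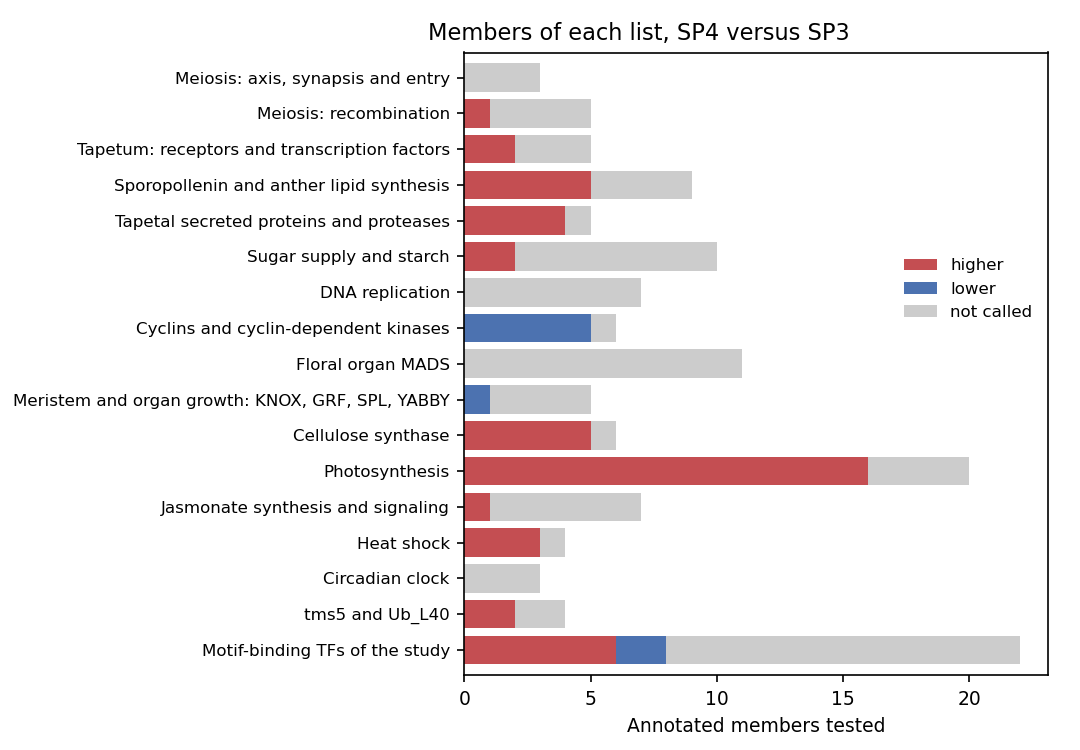
Stacked bars count the annotated members tested in each list with at least 3 of them, split into higher in SP4 (red), lower in SP4 (blue) and not called (grey). Photosynthesis (16 of 20), cellulose synthase (5 of 6) and the tapetal secreted proteins (4 of 5) hold the longest red shares, and the cyclins (5 of 6) are the only list that is mostly blue.

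Loci of pollen wall and anther lipid synthesis did not move alike. Of 9 tested, 5 rose and none fell, with a median log2 fold change of 1.57. LOC_Os07g22850, with the GO term secondary metabolic process, measured 1.64, 1.37 and 1.24 CPM in SP3 and 182, 159 and 179 CPM in SP4, a 127-fold rise (log2 fold change 6.98 ± 0.15, edgeR adjusted p = 6.56e-06). LOC_Os04g24530, of anatomical structure morphogenesis, went from 6.07, 7.90 and 5.88 CPM to 373, 377 and 419.9 CPM, or 61.4-fold (log2 fold change 5.94 ± 0.16, edgeR adjusted p = 8.51e-06). The SP3 libraries of both loci lay close together and far below SP4. LOC_Os03g15710, LOC_Os10g34360 and LOC_Os10g33250 rose less, with log2 fold changes of 2.39 ± 0.17, 1.65 ± 0.15 and 1.57 ± 0.10. The 4 loci that were not called had log2 fold changes of 0.74 (LOC_Os03g07250), 0.33 (LOC_Os08g03682), -0.20 (LOC_Os11g45400) and -0.33 (LOC_Os03g07140).

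The same list separated the sterile from the fertile step in both directions. In fertile panicles all 9 loci rose. LOC_Os03g07250 measured 13.3, 10.9 and 11.9 CPM in SP3 and 20.0, 18.7 and 19.1 CPM in SP4 but 28.0, 26.0 and 21.1 CPM in FP3 and 322, 331 and 327 CPM in FP4, so the fertile libraries were far above the sterile ones at P4. LOC_Os03g07140 stayed between 0.294 and 2.08 CPM in all sterile libraries and measured 333, 351 and 347 CPM in FP4. The difference between the steps was called below 0 for 5 loci (-3.71 in LOC_Os03g07140, -3.05 in LOC_Os03g07250, -2.55 in LOC_Os08g03682, -1.73 in LOC_Os10g34360 and -1.505 in LOC_Os11g45400). It was called above 0 for LOC_Os07g22850 (4.48, edgeR adjusted p = 9.88e-08) and LOC_Os04g24530 (3.68, edgeR adjusted p = 2.59e-07). Both began lower in SP3 than in FP3 and ended higher in SP4 than in FP4.

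Secreted proteins of the tapetum gave the highest median of the lists with more than 1 member, at 4.41, with 4 of 5 members higher. That median was 3.14 and 2.95 without SP4 replicate 1 or 2. LOC_Os08g43290 (lipid binding) measured 2.37, 3.09 and 2.63 CPM in SP3 and 173, 185 and 192 CPM in SP4 (log2 fold change 6.15 ± 0.13, edgeR adjusted p = 6.56e-06). LOC_Os08g38810 (response to stress) measured 0.819, 1.72 and 1.3004 CPM in SP3 and 41.7, 59.3 and 61.9 CPM in SP4 (log2 fold change 5.47 ± 0.32, edgeR adjusted p = 0.000106). LOC_Os09g35700, another lipid-binding locus, was already present in SP3 at 41.6, 69.0 and 46.6 CPM and reached 985, 1277 and 935 CPM in SP4. None of these groups overlapped. LOC_Os03g08790 (cell wall) rose with a log2 fold change of 1.72 ± 0.16. The fifth locus, LOC_Os11g37280 (lipid binding), measured 0.525, 0.783 and 2.24 CPM in SP3 and 3.26, 3.63 and 3.32 CPM in SP4 and was not called (log2 fold change 1.60 ± 0.54, edgeR adjusted p = 0.0534), but it was called at 2.38 without SP3 replicate 3. In fertile panicles it went from 33.2, 33.4 and 33.0 CPM to 868, 938 and 962 CPM, and the difference between the steps was -3.21 (edgeR adjusted p = 0.000922).

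Of 5 tapetal regulators, 2 rose and 3 were not called, with a median of 0.65. LOC_Os04g39470, a DNA-binding locus, measured 0.735, 0.500 and 0.325 CPM in SP3 and 19.7, 19.2 and 20.2 CPM in SP4 (log2 fold change 5.27 ± 0.29, edgeR adjusted p = 8.71e-05), with the groups far apart. Its step was larger than in fertile panicles by 4.16 on the log2 scale. LOC_Os02g02820, the homolog of ABORTED MICROSPORES, a basic helix-loop-helix factor that Arabidopsis needs for tapetum and microspore development, measured 25.1, 31.5 and 28.5 CPM in SP3 and 97.6, 88.3 and 88.0 CPM in SP4 (log2 fold change 1.75 ± 0.11, edgeR adjusted p = 0.000122), and the fertile step was of similar size at 1.61. TIP2 (LOC_Os01g18870), a related factor of early tapetal differentiation, had a log2 fold change of 0.65 ± 0.19 and was not called. LOC_Os04g51070 (nucleic acid binding) measured 37.8, 15.0 and 36.4 CPM in SP3 and 26.9, 21.8 and 18.9 CPM in SP4 with overlapping groups, and LOC_Os09g27620 stayed below 1 CPM in all 6 libraries.

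**Figure D4:**
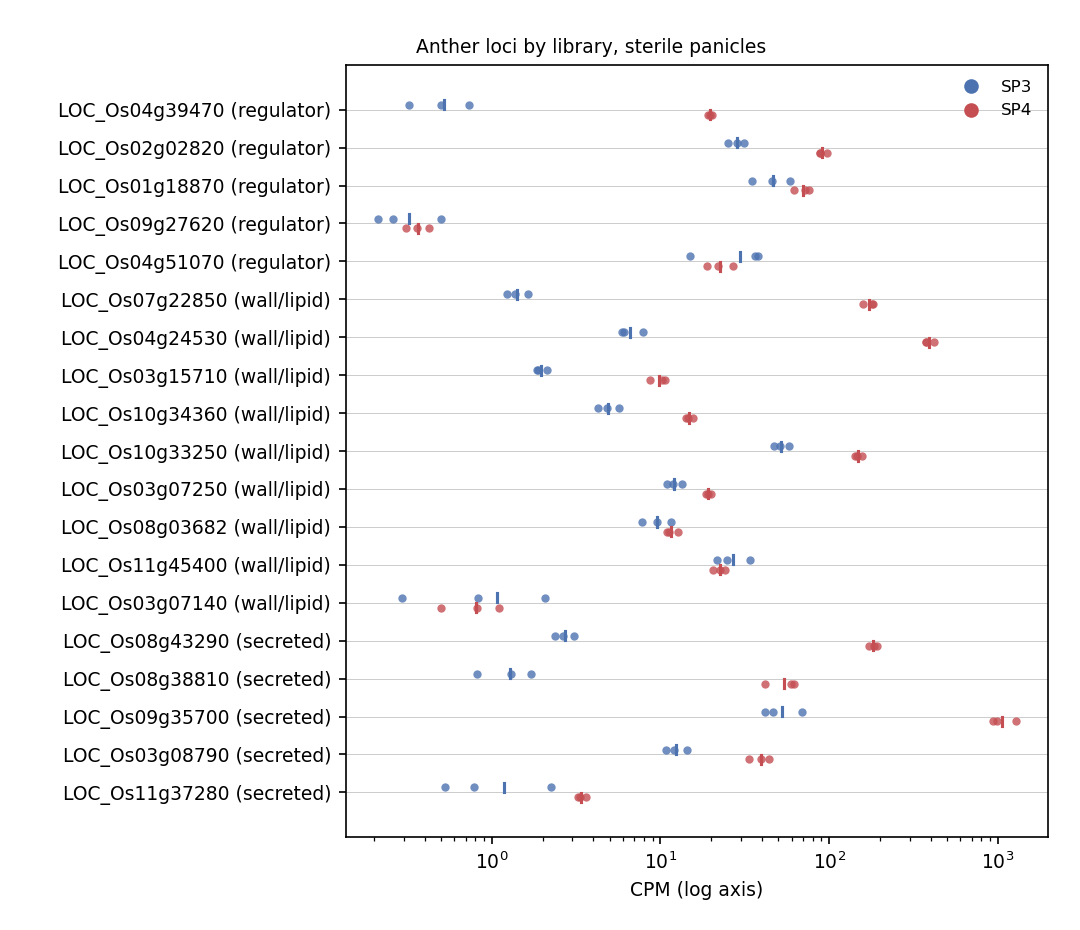
CPM in each sterile library on a log axis for the 19 tested loci of the tapetal regulator, wall and lipid, and secreted protein lists, with SP3 in blue, SP4 in red and a short bar for each group mean. LOC_Os07g22850, LOC_Os04g24530 and LOC_Os08g43290 move from single digits of CPM in SP3 to between 159 and 419.9 CPM in SP4, while LOC_Os08g03682, LOC_Os11g45400 and LOC_Os03g07140 overlap between the groups.

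Cell wall and chloroplast loci rose together. Of 6 cellulose synthase loci, 5 rose, with a median of 1.34. LOC_Os10g32980 measured 1.58, 1.52 and 2.08 CPM in SP3 and 18.5, 16.3 and 18.3 CPM in SP4 (log2 fold change 3.42 ± 0.18, edgeR adjusted p = 8.33e-05). LOC_Os01g54620 measured 8.19, 8.64 and 10.6 CPM in SP3 and 47.9, 40.4 and 43.4 CPM in SP4 (log2 fold change 2.32 ± 0.14, edgeR adjusted p = 0.000125). Both rose by less than in fertile panicles, where the log2 fold changes were 5.002 and 4.93, and the interaction was -1.61 and -2.64. LOC_Os05g08370, LOC_Os07g24190 and LOC_Os03g62090 rose with log2 fold changes of 1.48, 1.19 and 1.15, and LOC_Os07g14850, at 0.78, was not called.

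Of 20 photosynthesis loci, 16 rose and the SP4 libraries were above the SP3 libraries in all 20, with a median log2 fold change of 1.39. Among all genes tested, the SP4 libraries were above SP3 in 27.1%. LOC_Os01g41710 (photosynthesis) measured 61.1, 76.9 and 50.0001 CPM in SP3 and 286, 328 and 329 CPM in SP4 (log2 fold change 2.39 ± 0.17, edgeR adjusted p = 0.000173). LOC_Os12g19470 had the largest change of the list, from 0.924, 0.783 and 0.553 CPM to 5.90, 6.37 and 5.35 CPM (log2 fold change 3.01 ± 0.25). LOC_Os02g47020, LOC_Os04g38600, LOC_Os01g64960 and LOC_Os04g38410 followed with 2.44, 2.38, 2.03 and 1.70. Fertile panicles also raised these loci, all 20, with a median of 1.99. The sterile rise was smaller by a called interaction in 6 of them, by -1.43 in LOC_Os07g37240, -1.42 in LOC_Os03g39610, -1.33 in LOC_Os12g19381, -1.21 in LOC_Os12g23200, -1.15 in LOC_Os12g08770 and -1.03 in LOC_Os07g37550. Leaving out 1 library gave 14 to 18 loci higher, with the lowest count without SP3 replicate 3, where LOC_Os07g37550 was at 0.87.

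Mitotic cyclins fell together, and loci of DNA replication did not. Of 6 cyclin and cyclin-dependent kinase loci, 5 fell, with a median of -1.24. Cyclin-B1-1 (LOC_Os01g59120), which drives entry into mitosis, measured 67.5, 58.6 and 76.1 CPM in SP3 and 33.2, 29.9 and 30.5 CPM in SP4 (log2 fold change -1.05 ± 0.12, edgeR adjusted p = 0.00118). LOC_Os06g51110, LOC_Os12g31810, LOC_Os05g41390 and LOC_Os04g47580 fell by similar amounts, with log2 fold changes of -1.28 ± 0.12, -1.27 ± 0.13, -1.24 ± 0.10 and -1.23 ± 0.09. In each of these 5 loci all SP4 libraries were below SP3. The same was true of 28.6% of all genes tested. LOC_Os03g41100, at -0.42, was not called. All 6 fell in fertile panicles. The interaction called none of them in edgeR or DESeq2, with 2 under an unadjusted p of 0.05.

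None of the 7 DNA replication loci was called by edgeR or DESeq2, and their median was 0.39. An unadjusted p under 0.05 in edgeR was reached by 6 of them, and by 11607 of the 23601 genes tested. LOC_Os05g39850 (DNA binding) measured 47.8, 43.9 and 52.3 CPM in SP3 and 57.5, 58.5 and 65.1 CPM in SP4, with SP4 above SP3 in every library, a log2 fold change of 0.39 ± 0.10 and an adjusted p of 0.0242 in edgeR. MCM4 (LOC_Os01g36390), a subunit of the replicative helicase, was at -0.53. The interaction called 3 members above 0, 1.49 in LOC_Os05g39850, 1.06 in LOC_Os06g08790 and 1.01 in LOC_Os02g56130. In fertile panicles their log2 fold changes were -1.14, -1.66 and -0.55.

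Of the axis and recombination loci of meiosis, 0 of 3 and 1 of 5 were called in the sterile step, against 19.7% of all genes tested. None of the 3 axis and synapsis loci was called by edgeR, although all 3 had an unadjusted p under 0.05 and DESeq2 called 1. LOC_Os03g58600, which is also the only annotated member of the argonaute list, measured 262, 267 and 261 CPM in SP3 and 131, 128 and 131 CPM in SP4, with all SP4 libraries below SP3 at a log2 fold change of -0.96 ± 0.07 (edgeR adjusted p = 0.000203), just inside the fold threshold. LOC_Os04g37960 (cell cycle) was at 0.33 against -1.08 in fertile panicles (interaction 1.37). Of 5 recombination loci, LOC_Os06g41050 (DNA metabolic process) rose, from 2.16, 2.15 and 3.25 CPM to 6.04, 7.11 and 7.22 CPM (log2 fold change 1.49 ± 0.23, edgeR adjusted p = 0.00358). It fell in the fertile step with -1.296, and the interaction was 2.75 (edgeR adjusted p = 0.000123). The other 4 had log2 fold changes from -0.96 to 0.01. Without SP3 replicate 3, 1 locus of each meiotic list was called lower, and so was 1 recombination locus without SP4 replicate 3. The late pollen locus LOC_Os06g11970, a TF, fell from 1.76, 1.72 and 1.398 CPM to 0, 0.227 and 0.215 CPM, and it was at 0 in all 3 FP4 libraries.

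None of the 11 floral organ MADS-box loci was called by edgeR, with 5 under an unadjusted p of 0.05 and 1 called by DESeq2. The median was 0.02, whereas 6 rose in fertile panicles with a median of 1.07. LOC_Os12g10540 (DNA binding) measured 8.61, 9.70 and 7.12 CPM in SP3 and 7.81, 9.49 and 7.41 CPM in SP4, and the groups overlapped. LOC_Os04g49150 measured 84.4, 73.8 and 62.3 CPM in SP3 and 37.0, 36.3 and 38.1 CPM in SP4 (log2 fold change -0.92 ± 0.12, edgeR adjusted p = 0.00174), and without SP3 replicate 3 it was called at -1.09. The interaction called 5 members below 0, -2.18 in LOC_Os12g10540, -1.56 in LOC_Os05g11414, -1.42 in LOC_Os04g49150, -1.19 in LOC_Os03g11614 and -1.18 in LOC_Os01g10504. Of 5 meristem and organ growth loci, LOC_Os02g45570 fell from 14.4, 15.1 and 15.9 CPM to 3.57, 3.77 and 3.54 CPM (log2 fold change -2.0 ± 0.13, edgeR adjusted p = 0.000138). LOC_Os04g51190, at -0.99, was the nearest to a call among the other 4, and 2 loci were called lower without SP3 replicate 1, SP3 replicate 2 or SP4 replicate 1.

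Of 4 heat shock loci tested, 3 rose in the sterile panicles, which stayed in the field at both stages. The median log2 fold change of the 4 was 2.15. LOC_Os03g53340 (response to abiotic stimulus) measured 0.336, 0.174 and 0.260 CPM in SP3 and 2.08, 2.80 and 2.32 CPM in SP4 (log2 fold change 3.27 ± 0.35, edgeR adjusted p = 0.000846). LOC_Os01g08860, a class II small heat shock protein, measured 2.54, 2.54 and 3.06 CPM in SP3 and 14.0, 17.0 and 15.1 CPM in SP4 (log2 fold change 2.56 ± 0.16, edgeR adjusted p = 0.000128). Small heat shock proteins hold unfolding proteins in solution. LOC_Os01g04370, a class I member, measured 0.273, 0.522 and 0.455 CPM in SP3 and 0.927, 1.33 and 1.74 CPM in SP4, and its log2 fold change of 1.74 lost its call without SP4 replicate 2 (1.75) or replicate 3 (1.497). LOC_Os05g44340 was at 0.27 and was not called. The chamber-grown fertile panicles had more of each of the 3 that rose at P3, for example 23.1, 15.4 and 18.6 CPM of LOC_Os03g53340 and 31.9, 28.8 and 33.3 CPM of LOC_Os01g08860, and their log2 fold changes from FP3 to FP4 were -0.42, -1.21 and -0.90. The interaction was above 0 for all 4, at 3.65, 3.74, 2.60 and 1.11. The study gives the field a higher mean temperature than the chambers. Temperatures at the time of each collection are not part of the labels, and their part in these values was not tested.

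Among loci of sugar supply, jasmonate and the clock, 2 of 10, 1 of 7 and 0 of 3 were called, against 19.7% of all genes tested. Of 10 sugar and starch loci, LOC_Os06g12450 (carbohydrate metabolic process) rose from 0.693, 0.566 and 0.715 CPM to 12.96, 10.96 and 13.4 CPM (log2 fold change 4.30 ± 0.20, edgeR adjusted p = 4.87e-05), and LOC_Os03g07480 (plasma membrane) rose from 12.7, 14.2 and 15.8 CPM to 48.9, 46.4 and 44.4 CPM (log2 fold change 1.77 ± 0.12, edgeR adjusted p = 0.000152). Neither rose in fertile panicles, at 0.38 and 0.38, and the interaction was 3.88 and 1.35. The other 8 had log2 fold changes from -0.66 to 0.42. Of 7 jasmonate loci, LOC_Os10g42430 rose from 35.9, 43.2 and 43.3 CPM to 75.0, 84.4 and 89.6 CPM (log2 fold change 1.09 ± 0.11), which was 0.97 without SP3 replicate 1. LOC_Os03g08330 was at -0.89 and was called at -1.09 without SP3 replicate 3. None of the 3 clock loci was called by edgeR or DESeq2, with 2 under an unadjusted p of 0.05, and their log2 fold changes ran from -0.56 to 0.22.

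The largest rises by fold among annotated loci that averaged 10 CPM or more included 4 of the loci above (LOC_Os07g22850, LOC_Os08g43290, LOC_Os04g24530 and LOC_Os08g38810). LOC_Os05g33150, of regulation of biological process, measured 7.31, 9.33 and 6.599 CPM in SP3 and 298, 318 and 335 CPM in SP4 (log2 fold change 5.41 ± 0.16, edgeR adjusted p = 1.24e-05). LOC_Os03g18120 (Golgi apparatus) measured 0.504, 0.413 and 0.748 CPM in SP3 and 24.2, 25.5 and 25.3 CPM in SP4 (log2 fold change 5.57 ± 0.24, edgeR adjusted p = 4.01e-05). LOC_Os07g35940 (hydrolase activity) rose with a log2 fold change of 5.69 ± 0.53. In these 3 loci the SP4 libraries were close to each other and far above SP3. LOC_Os11g18570 (oxygen binding) measured 0.0630, 0 and 0.910 CPM in SP3 and 24.0, 23.0 and 25.9 CPM in SP4, and its log2 fold change of 6.48 was 9.44 without SP3 replicate 3 and 5.83 without SP3 replicate 2.

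The other 2 had libraries far apart within a group, LOC_Os10g21250 in SP4 and LOC_Os02g47010 in both. LOC_Os10g21250 (photosynthesis, thylakoid) measured 0.252, 0.283 and 0.423 CPM in SP3 and 9.56, 202 and 214 CPM in SP4, so SP4 replicate 1 was far below the other SP4 libraries, and its log2 fold change of 8.89 ± 1.37 was not called by limma voom with sample quality weights. LOC_Os02g47010 (mitochondrion) measured 22.9, 22.8 and 919 CPM in SP3 and 29107, 3610.0 and 11731 CPM in SP4. Its SP3 replicate 3 was far above the other SP3 libraries and its SP4 libraries differed widely. Its log2 fold change of 5.57 ± 1.80 (edgeR adjusted p = 0.0467) was 9.34 without SP3 replicate 3 and lost its call without any other library, where it was 4.63 to 6.04. In all, 177 loci in SP3 and 149 in SP4 jumped between replicates of the group, from no more than 1 count to 100 counts or above, and none of those tested was called.

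By rise in mean CPM, LOC_Os09g35700, LOC_Os04g24530, LOC_Os02g47010 and LOC_Os05g08370 were again among the first. Beta-hexosaminidase 3 (LOC_Os01g66700), an enzyme that removes terminal N-acetylhexosamines from glycans, measured 152, 120.0 and 123 CPM in SP3 and 846, 789.7 and 755 CPM in SP4 (log2 fold change 2.66 ± 0.12, edgeR adjusted p = 5.27e-05). LOC_Os03g28330 (vacuole) measured 424, 343 and 730.0 CPM in SP3 and 1467, 1155 and 1475 CPM in SP4, with SP3 replicate 3 the highest of its group. The lipid-binding loci LOC_Os11g02350 and LOC_Os12g02300 rose with log2 fold changes of 1.81 ± 0.18 and 1.57 ± 0.16. They lie in a segment that rice chromosomes 11 and 12 share, so their counts may be split between near-identical copies and are uncertain. LOC_Os11g06390 and LOC_Os01g67860 rose with 1.07 and 1.06. The former was below 1 without SP3 replicate 1 (0.99), SP3 replicate 2 (0.92) or SP4 replicate 2 (0.92), and the latter was 0.85 without SP3 replicate 2.

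Among annotated loci that averaged 10 CPM or more and whose groups did not overlap, the largest falls by fold were smaller than the largest rises. LOC_Os10g13700 (carbohydrate metabolic process) measured 26.7, 32.7 and 25.5 CPM in SP3 and 3.12, 2.72 and 2.17 CPM in SP4, 10.2-fold lower (log2 fold change -3.34 ± 0.18, edgeR adjusted p = 8.93e-05). LOC_Os08g02220 (catalytic activity) measured 187, 226 and 129 CPM in SP3 and 19.6, 21.6 and 26.3 CPM in SP4 (log2 fold change -2.94 ± 0.23, edgeR adjusted p = 0.000257). LOC_Os05g13630 (RNA binding) measured 378, 354 and 366 CPM in SP3 and 74.1, 73.2 and 74.9 CPM in SP4, with a log2 fold change of -2.24 ± 0.08 and the narrowest spread of these. MADS-box transcription factor 32 (LOC_Os01g52680) fell from 24.0, 28.2 and 24.0 CPM to 5.20, 4.73 and 6.05 CPM (log2 fold change -2.19 ± 0.14, edgeR adjusted p = 0.000141). LOC_Os04g24140, LOC_Os04g55970, LOC_Os04g41110, LOC_Os01g63310 and LOC_Os04g52920 fell with log2 fold changes of -2.27, -2.26, -2.08, -2.03 and -1.99. LOC_Os02g07450 measured 200.1, 200.2 and 153 CPM in SP3 and 18.1, 14.6 and 82.1 CPM in SP4, with SP4 replicate 3 well above its group. Its log2 fold change of -2.20 was -3.43 without that library and lost its call without any 1 of the other 5, where it was -2.38 to -1.81.

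The annotated loci with the largest falls in mean CPM were abundant, which follows from choosing them by CPM. The gene for the ribosomal protein S4 of the small subunit (LOC_Os02g01560) measured 984, 861 and 678 CPM in SP3 and 351, 355 and 346 CPM in SP4 (log2 fold change -1.20 ± 0.14, edgeR adjusted p = 0.00115). LOC_Os04g28180 (non-membrane-bounded organelle) measured 1234, 1279 and 961 CPM in SP3 and 486, 487 and 503 CPM in SP4, and LOC_Os05g34700 (lipid metabolic process) measured 1133, 1241 and 844 CPM in SP3 and 438, 468 and 437 CPM in SP4. Every SP4 library of these was below SP3. LOC_Os02g16909 (enzyme regulator activity), LOC_Os06g10230 (cell growth), LOC_Os08g31810 (RNA binding) and LOC_Os03g14050 (response to biotic stimulus) fell with log2 fold changes of -1.48, -1.47, -1.43 and -1.35. LOC_Os06g20370 (cytoskeleton) was at -1.01, which was -0.96 without SP3 replicate 2 and -0.99 without SP4 replicate 2.

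In fertile panicles, the same step called 3204 genes higher (12.9%) and 1527 lower (6.13%) of 24926 tested. Genes that rose in both steps numbered 1389, or 46.0% of the sterile and 43.4% of the fertile rises. Falls shared by both numbered 579, or 35.8% and 37.9%. The steps share no library, but all panicles came from the same line. The interaction, which tests the difference between the steps itself, called 2606 of 26392 genes (9.87%), 1746 with the sterile step above the fertile one (6.62%) and 860 below it (3.26%).

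Only a few genes went in opposite directions, 41 higher in the sterile and lower in the fertile step and 35 the reverse. LOC_Os12g38040 had no count in SP3, 5.51, 4.45 and 4.73 CPM in SP4, 3.06, 3.38 and 2.67 CPM in FP3 and no count in FP4. With 3 counts over the SP3 group as the floor, it was at least 203-fold higher in SP4. LOC_Os06g42310 (carbohydrate metabolic process) fell from 0.861, 0.979 and 0.878 CPM to 0, 0.113 and 0.0956 CPM in sterile panicles and rose from 0.280, 0.625 and 0.726 CPM to 12.1, 11.3 and 15.4 CPM in fertile ones. LOC_Os12g39730 fell from 0.672, 0.631 and 0.748 CPM to 0.141, 0 and 0.0478 CPM with a log2 fold change of -3.33, which lost its call without SP4 replicate 3 (-3.16) and was -4.53 without SP4 replicate 1.

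Among annotated genes that averaged 10 CPM or more over the 12 libraries, several of the largest interactions came from genes near 0 in one type of panicle. LOC_Os12g13930 (transferase activity) stayed between 0.420 and 0.813 CPM in all sterile libraries and went from 3.22, 2.93 and 2.67 CPM to 71.9, 69.3 and 79.8 CPM in fertile ones. LOC_Os01g08800, annotated as a cytochrome P450, measured 0.567, 0.827 and 1.14 CPM in SP3 and 1.26, 1.27 and 1.27 CPM in SP4, against 61.1, 65.5 and 63.1 CPM in FP4. LOC_Os03g46400 (response to biotic stimulus) measured 2.92, 1.81 and 5.75 CPM in SP3 and 1.26, 1.76 and 1.84 CPM in SP4, against 42.8, 42.7 and 48.5 CPM in FP4. In the opposite direction, LOC_Os03g63580 (lipid metabolic process) rose from 0.0630, 0 and 0.0975 CPM to 1.24, 1.303 and 1.43 CPM, a level still far below the 19.5, 17.87 and 19.9 CPM of FP4. LOC_Os03g12510 (cell wall) measured 9.58, 5.39 and 5.07 CPM in SP3 and 12.2, 12.8 and 13.7 CPM in SP4. Its log2 fold change of 1.01 was at the threshold and lost its call without any 1 library except SP3 replicate 1, with values from 0.78 (without SP3 replicate 3) to 1.05, while in the fertile step it fell by 5.31. LOC_Os01g37000 measured 0, 0.0653 and 1.43 CPM in SP3 and 10.1, 7.36 and 10.2 CPM in SP4, with SP3 replicate 3 the highest of its group. Its log2 fold change of 4.37 was 8.04 without that library, was 3.72 without SP3 replicate 1, and lost its call without SP3 replicate 2 or any 1 SP4 library.

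**Figure D5:**
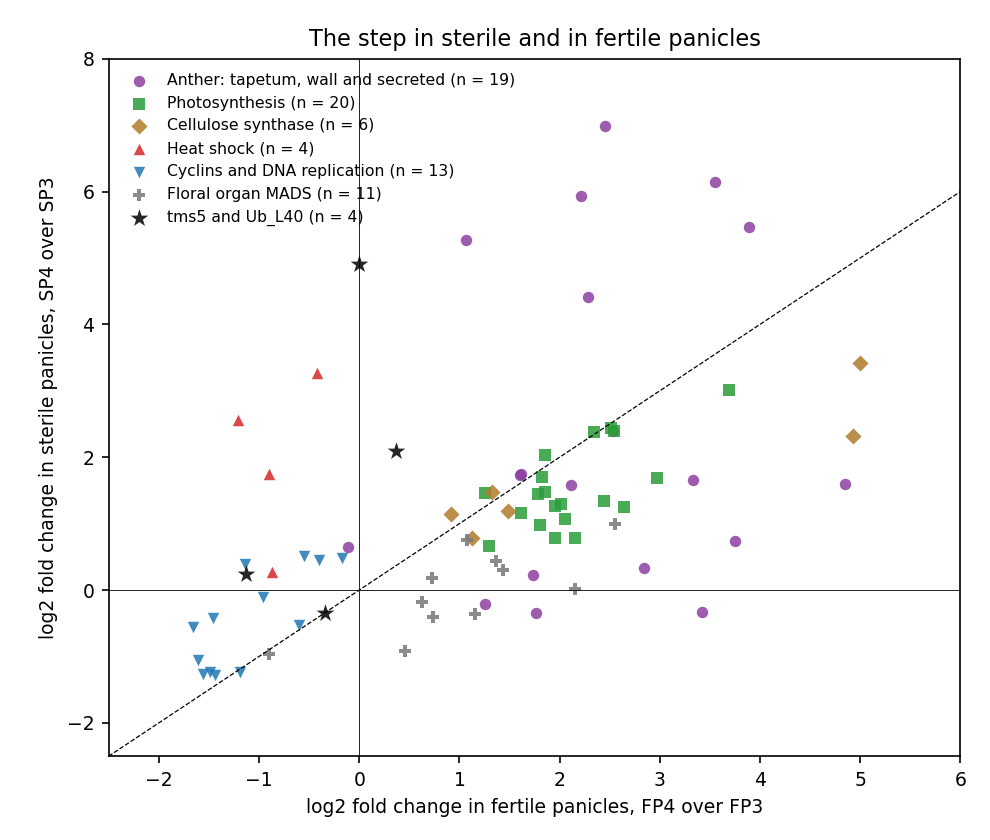
Each point is an annotated list member, with the log2 fold change of the fertile step (FP4 over FP3) on the horizontal axis and that of the sterile step (SP4 over SP3) on the vertical axis. Symbols and colours mark 7 groups of lists, and the dashed line marks equal change in both steps. Heat shock loci and Ub_L40 1 lie left of and above the line, photosynthesis loci lie along or below it, and the anther loci fall on both sides of it.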

How the data were processed

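Whole young panicles of WXS(S) and WXS(F) at P3 and P4 were sequenced as ribosomal RNA-depleted, strand-specific paired-end libraries, 3 biological replicates per group. The authors used HISAT2 for alignment to MSU7, quantified genes with StringTie and deposited whole-number estimated counts for 47919 loci. The authors also deposited FPKM values, scaled to gene length and mapped reads. Tool versions are not given in the sources used here. The ATAC-seq peak lists were not used, and 0 columns of per-sample values were left out.

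Estimated counts were tested with edgeR 4.0.16 (R 4.3.3) after filterByExpr and TMM scaling, with glmQLFit, glmQLFTest and Benjamini-Hochberg adjustment. The sterile and the fertile step were each fitted on their own 6 libraries and the interaction on all 12. CPM values, which are counts relative to the library total, were scaled by TMM over the 12 libraries. Calls needed a change of more than 1 on the log2 scale in either direction together with an adjusted p under 0.05. Single values per library were compared with exact permutation tests. The edgeR, DESeq2 and voom fits were checked on simulated data, in which DESeq2 made more false calls than edgeR for the interaction. Several choices were varied. The test was replaced by DESeq2 1.42.0, by limma voom with sample quality weights and by limma 3.58.1 on log2(FPKM + 1), requiring 1 FPKM in 3 libraries, with a second pseudocount of 0.1 and a version with no filter. Within edgeR, TMM was dropped, the count filter was dropped or raised to 10 counts in each library, replicate numbers entered as a block, the 12 libraries shared a fit, p-values were left unadjusted and each library was removed in turn.

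Genes were named by a rule: tms5, the Ub_L40 genes and the 22 TFs, the 10 largest and 10 smallest annotated log2 fold changes among called genes that averaged 10 CPM or more without overlap, the 10 largest annotated rises and falls in mean CPM, up to 6 called members per list, the 5 largest and 5 smallest annotated interactions and the list members it called, and 3 genes with opposite steps. Other members were named after their values were seen. The groups, lists and rule were chosen with earlier results of these data known. Of 243 listed loci, 1 was left out because the study's product table gives it as another protein (LOC_Os01g66690). GO terms are those of the study's tables, which were held in shortened form, and no enrichment was tested. Primer sequences come from the study's primer table. The gene models of MSU7 were not used here, so no coordinates are given.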

Additional observations from a re-analysis of the deposited data

Results flagged for a closer look

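The values here are the difference between the sterile and the fertile step, (SP4 - SP3) - (FP4 - FP3) on the log2 scale. Each of the 73 genes named by the rule was singled out because the edgeR interaction over the 12 libraries called that difference, at an adjusted p below 0.05 and a size above 1.

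The difference was above 0 for 4.86 in LOC_Os09g27930, 1.70 in LOC_Os03g15370 and 1.33 in LOC_Os09g31031, the Ub_L40 genes, and for the heat shock loci 3.65 in LOC_Os03g53340, 3.74 in LOC_Os01g08860, 2.60 in LOC_Os01g04370 and 1.11 in LOC_Os05g44340. It was also above 0 for the tapetal and wall loci 4.48 in LOC_Os07g22850, 4.16 in LOC_Os04g39470, 3.68 in LOC_Os04g24530, 2.55 in LOC_Os08g43290, 2.08 in LOC_Os09g35700 and 1.53 in LOC_Os08g38810. Loci of DNA replication and meiosis gave 1.49 in LOC_Os05g39850, 1.06 in LOC_Os06g08790, 1.01 in LOC_Os02g56130, 2.75 in LOC_Os06g41050 and 1.37 in LOC_Os04g37960. Sugar, starch and jasmonate loci gave 3.88 in LOC_Os06g12450, 1.35 in LOC_Os03g07480, 1.21 in LOC_Os07g13980 and 1.3 in LOC_Os10g42430, and the organ growth locus gave 1.06 in LOC_Os02g42950. Among the TFs it was 2.18 in LOC_Os03g64260, 1.15 in LOC_Os01g60960 and 1.12 in LOC_Os09g35910, which are ERF83, LBD and HOX6.

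The difference was below 0 for the tapetal and wall loci -3.71 in LOC_Os03g07140, -3.21 in LOC_Os11g37280, -3.05 in LOC_Os03g07250, -2.55 in LOC_Os08g03682, -2.14 in LOC_Os04g51070, -1.73 in LOC_Os10g34360 and -1.5 in LOC_Os11g45400. Cellulose synthase loci gave -2.64 in LOC_Os01g54620 and -1.61 in LOC_Os10g32980. Photosynthesis loci gave -1.43 in LOC_Os07g37240, -1.42 in LOC_Os03g39610, -1.33 in LOC_Os12g19381, -1.21 in LOC_Os12g23200, -1.15 in LOC_Os12g08770 and -1.03 in LOC_Os07g37550. Floral organ MADS-box loci gave -2.18 in LOC_Os12g10540, -1.56 in LOC_Os05g11414, -1.42 in LOC_Os04g49150, -1.19 in LOC_Os03g11614 and -1.18 in LOC_Os01g10504, and organ growth loci gave -1.5 in LOC_Os07g06620 and -1.22 in LOC_Os03g11600. It was -2.06 in LOC_Os03g08330 of the jasmonate list and -1.49 in LOC_Os01g16810 of the sugar list. The TFs ERF141 and ERF134 had -1.71 in LOC_Os02g42585 and -7.63 in LOC_Os02g09650. ERF134 measured 0.02003, 0.0215 and 0.0234 CPM in FP3 and 0.0239, 4.51 and 4.13 CPM in FP4, so 1 library of FP4 and 1 of SP4 were near 0 while others of the same group were not.

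Among the loci with the largest rises and falls, the difference was 2.68 in LOC_Os03g18120, 1.14 in LOC_Os05g33150, 1.42 in LOC_Os01g66700, 1.73 in LOC_Os10g13700 and 1.48 in LOC_Os04g41110, all above 0, and -1.22 in LOC_Os04g52920, -1.09 in LOC_Os01g52680 and -1.01 in LOC_Os08g31810, all below. In the last 5 of these the locus fell in sterile panicles, so a value above 0 is a smaller fall and a value below 0 a larger one. The genes chosen for the size of the difference had 7.46 in LOC_Os10g21250, 6.27 in LOC_Os03g12510, 4.98 in LOC_Os03g63580, 4.78 in LOC_Os11g18570 and 4.57 in LOC_Os01g37000 above 0 and -6. in LOC_Os01g69960, -5.30 in LOC_Os03g46400, -4.83 in LOC_Os12g13930, -3.95 in LOC_Os01g08800 and -3.75 in LOC_Os01g70440 below 0. LOC_Os01g69960, annotated as the plastid protein Ycf2, measured 0.144, 16.7 and 18.6 CPM in FP4, so 1 library of that group was near 0. LOC_Os01g70440 measured 0, 0.109 and 0.813 CPM in SP3 and 0.703, 1.44 and 0.932 CPM in SP4, and its log2 fold change of 1.87 was not called but reached 4.18 and was called without SP3 replicate 3. Genes with opposite calls in the steps had 20.69 in LOC_Os12g38040, a fitted value that depends on the prior count because SP3 and FP4 had no count, -8.22 in LOC_Os06g42310 and -6.47 in LOC_Os12g39730.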

How the results depend on the processing

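Counts of calls changed as follows. With limma on log2(FPKM + 1) the sterile step had 1307 genes higher and 661 lower, with a pseudocount of 0.1 it had 1823 and 1037, and with no filter on low FPKM it had 1270 and 619. The fertile step had 1346 and 566, 1889 and 979, and 1337 and 556 under these settings. The interaction had 731 genes above 0 on log2(FPKM + 1) and 681 with no filter, and 1436 below 0 at unadjusted p-values. New gene models that fell numbered 101 with at least 10 counts in every library, 49 on log2(FPKM + 1), 62 with a pseudocount of 0.1 and 69 with no filter, alternatives that for these models were chosen after seeing the data. List members that fell numbered 14 with DESeq2. Leaving out 1 library at a time gave 2493 to 3233 higher and 1435 to 2054 lower in the sterile step, 2979 to 3207 and 1437 to 1550 in the fertile step, 1457 to 2260 above and 603 to 1217 below 0 in the interaction, 45 to 49 and 9 to 14 list members, and 347 to 459 new gene models that fell. The values 3233, 2054, 2260, 1217, 14 and 459 all came without SP3 replicate 3. With no filter on low counts, 40280 genes entered and their median log2 fold change was -0.15 against 0.03. Rises made up 61.1% to 67.2% of the calls under the alternatives and 65.1% of the main calls.

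Over all genes, deviations from the group means correlated at 0.021, 0.042 and -0.004 for the same replicate number and at -0.048 to 0.024 for different numbers. The 10 most abundant genes took 12.3%, 4.004% and 5.76% of the counts in SP3 replicates 1, 2 and 3. In SP4 they took 11.99%, 3.26% and 6.31%, in the same order by replicate number. A correlation over all genes cannot show a link that acts on few genes, so whether the replicate numbers pair the libraries was not decided. With the replicate block, 2748 genes rose and 1405 fell in sterile panicles, 2919 and 1403 in fertile panicles, the interaction called 1412 and 579, the lists held 47 and 9 and 363 new gene models fell. Of 2182 alternative values of the named genes, 2072 kept their direction and side of the threshold, 71 were no longer called and 22 became called. The other 17 changed sign, in 4 genes that were called neither in all 6 libraries nor in that setting. LOC_Os02g55380 (ERF127) went from -0.11 to 0.032 with the replicate block, and ran from -0.42 to 0.48 when 1 library was left out. LOC_Os03g07140 went from -0.33 to 0.0012 on log2(FPKM + 1) with no filter, 0.33 with voom weights, and ran from -0.80 to 0.53 when 1 library was left out. LOC_Os12g13930 went from -0.12 to 0.052 with voom weights, and ran from -0.39 to 0.00031 when 1 library was left out. LOC_Os12g10540 went from 0.02 to -0.036 with DESeq2, -0.011 with at least 10 counts, -0.090 on log2(FPKM + 1) with or without the filter, -0.108 with a pseudocount of 0.1, -0.024 with all 12 libraries, -0.057 with voom weights, and ran from -0.15 to 0.12 when 1 library was left out. Depth limits loci under 1 CPM, where a count of 0 in a group allows up to 3 counts. Counting error alone is covered by such a limit.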

Other observations

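A product description is at hand for 595 loci, nearly all on chromosome 1, from the study's list of genes that differed between FP3 and SP3. That choice used the FP3 and SP3 libraries, which also enter the steps and the interaction. The counts, medians and interaction calls below are therefore descriptions, and the keyword classes were chosen after the values were seen. Of 557 tested, 191 rose and 62 fell, with a median log2 fold change of 0.60 against -0.01 in the fertile step. The interaction called 135 of them above 0 and 26 below 0, against 6.62% and 3.26% of all genes it tested. All 9 extensins and leucine-rich repeat extensin-like proteins, which are structural glycoproteins of the cell wall, rose, with a median log2 fold change of 2.57 against 1.15 in the fertile step. LOC_Os01g45700 measured 1.93, 2.09 and 1.59 CPM in SP3 and 23.7, 25.3 and 26.7 CPM in SP4 and LOC_Os01g02150 measured 7.44, 11.2 and 5.82 CPM in SP3 and 67.5, 80.2 and 72.5 CPM in SP4. All 4 tested glucan endo-1,3-beta-glucosidases, enzymes that cut callose and related glucans, rose, and the interaction called all 4 above 0. LOC_Os01g64170 measured 19.2, 17.44 and 14.4 CPM in SP3 and 36.3, 41.7 and 42.9 CPM in SP4, LOC_Os01g71820 measured 0.0840, 0.131 and 0.0975 CPM in SP3 and 1.63, 1.76 and 1.60 CPM in SP4, and LOC_Os01g71670 and LOC_Os01g71830 had no count in SP3 and were each at least 25.0-fold higher in SP4, with 3 counts over the group as the floor. Of 6 ABC transporters 5 rose. Of 5 loci whose product names a protease or proteinase 4 rose, among them LOC_Os01g42030, a regulatory subunit of the 26S protease. Other classes were mixed, with 8 of 25 receptor-like kinases higher and 1 lower, 3 of 10 cytochrome P450 loci higher, 3 of 8 peroxidases higher and 1 lower, and 2 of 9 E3 ubiquitin-protein ligases higher and 3 lower. Both laccases rose, LOC_Os01g61160 from 0, 0 and 0.0650 CPM to 1.41, 1.33 and 1.36 CPM and LOC_Os01g63190 from 0.189, 0.283 and 0.488 CPM to 1.52, 2.69 and 2.25 CPM. Of 8 ribosomal protein loci none rose and 2 fell. Of 5 loci described as heat shock proteins or heat stress TFs, 4 rose and 1 fell, and the interaction called 4 above 0 and 1 below 0. None of 4 histone loci was called by edgeR or DESeq2. All 4 had an unadjusted p under 0.05 in edgeR, as did 11607 of the 23601 genes tested.

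Called loci also followed each other in the order of their locus IDs. Counting runs of at least 4 tested loci in that order called in the same direction, there were 22 runs of rises and 1 of falls, with 104 loci in all. Untested loci and new gene models were skipped and no coordinates were used, so members of a run need not be adjacent on the chromosome. The longest run of rises held 8 loci from LOC_Os07g35330 to LOC_Os07g35520, at 0.0435 to 4.31 CPM in SP3 and 0.340 to 30.0 CPM in SP4, and 2 of them rose in fertile panicles. The run of falls held 8 loci from LOC_Os11g40680 to LOC_Os11g40870, at 0.261 to 7.31 CPM in SP3 and 0 to 0.450 CPM in SP4, and none of the 8 could be tested in the fertile step because of low counts. A run of 4 rises from LOC_Os01g04350 to LOC_Os01g04380 includes the small heat shock locus LOC_Os01g04370, and the interaction called all 4, below 0 in LOC_Os01g04350 (-1.14) and above 0 in the other 3 (1.41, 2.60 and 4.21). How often neighbours would be called together without any link was not tested, and similar neighbours can share reads. Among tested loci of the Rice Genome Annotation Project, rises made up 11.7% to 14.8% on each chromosome and falls 4.40% to 7.97%. The largest share of falls was on chromosome 11. New gene models were not part of these shares.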
